A study of Mus musculus with 12 samples.

Results

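The complement genes described here are 9 genes chosen by name from the 35275 genes of the deposited table: C1qa, C1qb and C1qc, C4b, C3, Cfb, C3ar1, C5ar1 and Serping1. Their RNA was measured by RNA-seq in the cortex of 8-month-old mice, with 3 libraries for each of 4 genotypes, whose titles number them 1, 2 and 4. APP/PS1/Sirt3-/- mice carry the APP/PS1 transgenes, which encode human amyloid precursor protein and presenilin 1 with disease mutations, together with a deletion of Sirt3, the gene of a mitochondrial deacetylase. APP/PS1 mice carry the transgenes with Sirt3 intact, Sirt3-/- mice carry the deletion without the transgenes, and WT mice carry neither. The deletion is global, so no cell type is spared, and no other treatment is given for any group. The study's methods name more than 1 inbred background for the Sirt3-/- stocks without stating which was sequenced, and the promoter behind the transgenes is likewise not stated there.

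Complement is a cascade of plasma and tissue proteins that tags cells, debris and synapses for removal. In the classical pathway, C1q binds its target, the attached proteases cleave C4 and C2, and the enzyme formed on the surface cleaves C3. Factor B, from Cfb, forms the enzyme of the alternative pathway, the fragments C3a and C5a signal through their receptors, and the C1 inhibitor holds the first proteases in check. In mouse brain, microglia are the main source of C1q, astrocytes make C3 and C4 when reactive, and C1q and C3 have been tied to the removal of synapses by microglia.

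The 3 C1q genes lie side by side on the reverse strand of chromosome 4 (GRCm38). C1qb (ENSMUSG00000036905) spans bases 136880129 to 136886187, C1qc (ENSMUSG00000036896) spans 136889804 to 136893065, and C1qa (ENSMUSG00000036887) spans 136895917 to 136898803. Only 3616 bases separate C1qb from C1qc, and 2851 separate C1qc from C1qa. C4b (ENSMUSG00000073418, 34728380 to 34743882), Cfb (ENSMUSG00000090231, 34856374 to 34862518) and C3 (ENSMUSG00000024164, 57203970 to 57228136) lie on chromosome 17, the first pair in the major histocompatibility complex. C3ar1 (ENSMUSG00000040552) lies on chromosome 6 from 122847138 to 122856161, C5ar1 (ENSMUSG00000049130) on chromosome 7 from 16246743 to 16259540, and Serping1 (ENSMUSG00000023224) on chromosome 2 from 84765387 to 84775444. All 9 are annotated as protein-coding and read on the reverse strand.

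Some of these values cannot be assigned to a gene without doubt. Of the stretches of 50 bases in the longest C4b transcript of GENCODE vM21, 35.2% also occur in a transcript of its near copy C4a, so reads of the pair may be shared and C4b is uncertain to that extent. C4a itself had 4.63 to 8.51 CPM over the 12 libraries (reads scaled to a common library total). Cfb is overlapped by Gm20547, a readthrough gene that the table lists at 0 reads in every library. How reads lying in both genes were counted is not stated, so some may be missing from Cfb. The other 8 genes overlap no further gene of the table.

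The start regions of C1qb, C1qc and C3 are shown because the C1q genes followed each other closely across libraries while C3 did not. Windows of 250 bases before and 50 after the RefSeq start (GRCm38.p6) were given for 5 of the 9 genes. The C1qb window is chr4:136886151-136886450, the C1qc window chr4:136892865-136893164 and the C3 window chr17:57228087-57228386, each on the reverse strand and printed 5′ to 3′. Capitals mark a match to GAGGAA, the core bound by the myeloid factor PU.1, or to TTGCNNAA, a core bound by C/EBP factors.
C1qb: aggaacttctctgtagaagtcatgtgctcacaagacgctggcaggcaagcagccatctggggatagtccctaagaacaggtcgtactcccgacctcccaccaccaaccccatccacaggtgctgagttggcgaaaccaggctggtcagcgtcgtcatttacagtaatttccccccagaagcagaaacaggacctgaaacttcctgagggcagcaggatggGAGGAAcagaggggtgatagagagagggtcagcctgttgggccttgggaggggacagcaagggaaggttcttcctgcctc
C1qc: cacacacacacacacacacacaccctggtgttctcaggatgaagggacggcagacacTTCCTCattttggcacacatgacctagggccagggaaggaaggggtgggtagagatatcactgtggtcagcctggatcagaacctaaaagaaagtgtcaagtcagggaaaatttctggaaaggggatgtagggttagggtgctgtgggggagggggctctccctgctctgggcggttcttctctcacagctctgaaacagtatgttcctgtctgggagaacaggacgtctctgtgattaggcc
C3: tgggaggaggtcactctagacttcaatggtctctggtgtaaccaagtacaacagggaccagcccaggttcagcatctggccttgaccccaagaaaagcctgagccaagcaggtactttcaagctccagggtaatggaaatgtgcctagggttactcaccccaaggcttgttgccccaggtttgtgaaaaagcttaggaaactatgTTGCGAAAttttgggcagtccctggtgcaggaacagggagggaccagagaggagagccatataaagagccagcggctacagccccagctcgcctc
Both strands were searched for 3 motifs, and no matches overlapped. The C1qb window held GAGGAA 30 bases before the start, and the C1qc window held it on the opposite strand, as TTCCTC, beginning 193 bases before the start. It was found in 28.3% of all 32851 RefSeq windows of this length, and in none of the C3, C3ar1 and C5ar1 windows. TTGCNNAA, found in 10.8% of all windows, stood 45 bases before the start of C3 as TTGCGAAA and in none of the other 4. TTCNNNGAA, a core bound by STAT factors (8.3% of all windows), had no match in the 5 windows. A match describes the letters and not binding.

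Reads counted in genes numbered 15251720 to 18644376 per library, and 16673 genes passed the filter on low counts. The libraries did not all follow their labels. Sirt3 was at 28.6 and 27.7 CPM in replicates 1 and 4 labelled APP/PS1/Sirt3-/- and at 0.211 in replicate 2, against 59.0 to 64.3 CPM in APP/PS1, and at 0.186 to 0.467 CPM in Sirt3-/-, against 60.8 to 64.5 in WT. App was at 1623 CPM in replicate 4 labelled APP/PS1, within 1602 to 1844 in Sirt3-/- and below 1755 to 1828 in WT, while the other 5 libraries labelled as transgenic had 3295 to 3856 CPM. All mice are labelled female, but replicate 4 of every group had at most 3.36 CPM of Xist and at least 32.3 CPM of the Y-linked Ddx3y. Cortical neuron markers were abundant in every library (Nrgn at 683 FPKM or more), and striatal, thalamic and choroid plexus markers varied between libraries, the choroid plexus gene Ttr between 6.80 and 1264 FPKM. Directions given for a group therefore rest on the labels, and the contrasts of the transgenic groups are given with values that leave out libraries named here.

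Levels between genes were compared in FPKM, which divides by gene length. The C1q genes were the most abundant of the 9, with medians over the 12 libraries of 47.0 FPKM for C1qa (range 37.9 to 75.8), 44.3 for C1qb (37.1 to 65.9) and 36.3 for C1qc (30.4 to 58.5). C4b followed with a median of 12.6 FPKM (6.48 to 27.3), below C1qc in 12 of 12 libraries with ranges that did not overlap. Serping1, which encodes the C1 inhibitor, had a median of 3.95 FPKM (2.09 to 6.56). C3, the central component, had 0.961 FPKM (0.200 to 2.82), and the receptors C3ar1 and C5ar1 had 0.537 (0.376 to 1.05) and 0.469 (0.252 to 0.675). Cfb was lowest as counted, at 0.0418 FPKM (0 to 0.117), below C5ar1 in 12 of 12 libraries. All other neighbours in this order had ranges that overlapped, although C1qb lay above C1qc and C4b above Serping1 in every library.

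The design has 8 contrasts: each genotype against WT, the double mutant against each single one, both factors averaged over the other, and their interaction. With edgeR's quasi-likelihood test on all 12 libraries and Benjamini-Hochberg adjustment over 16673 genes, none of the 8 complement genes that passed the filter had an adjusted p under 0.05 in any contrast. Cfb did not pass it. The C1q genes, C4b and C3ar1 nevertheless had higher values under the APP/PS1 labels, and C3 was highest in the double mutant, with the sizes and errors given below.

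**Figure D1:**
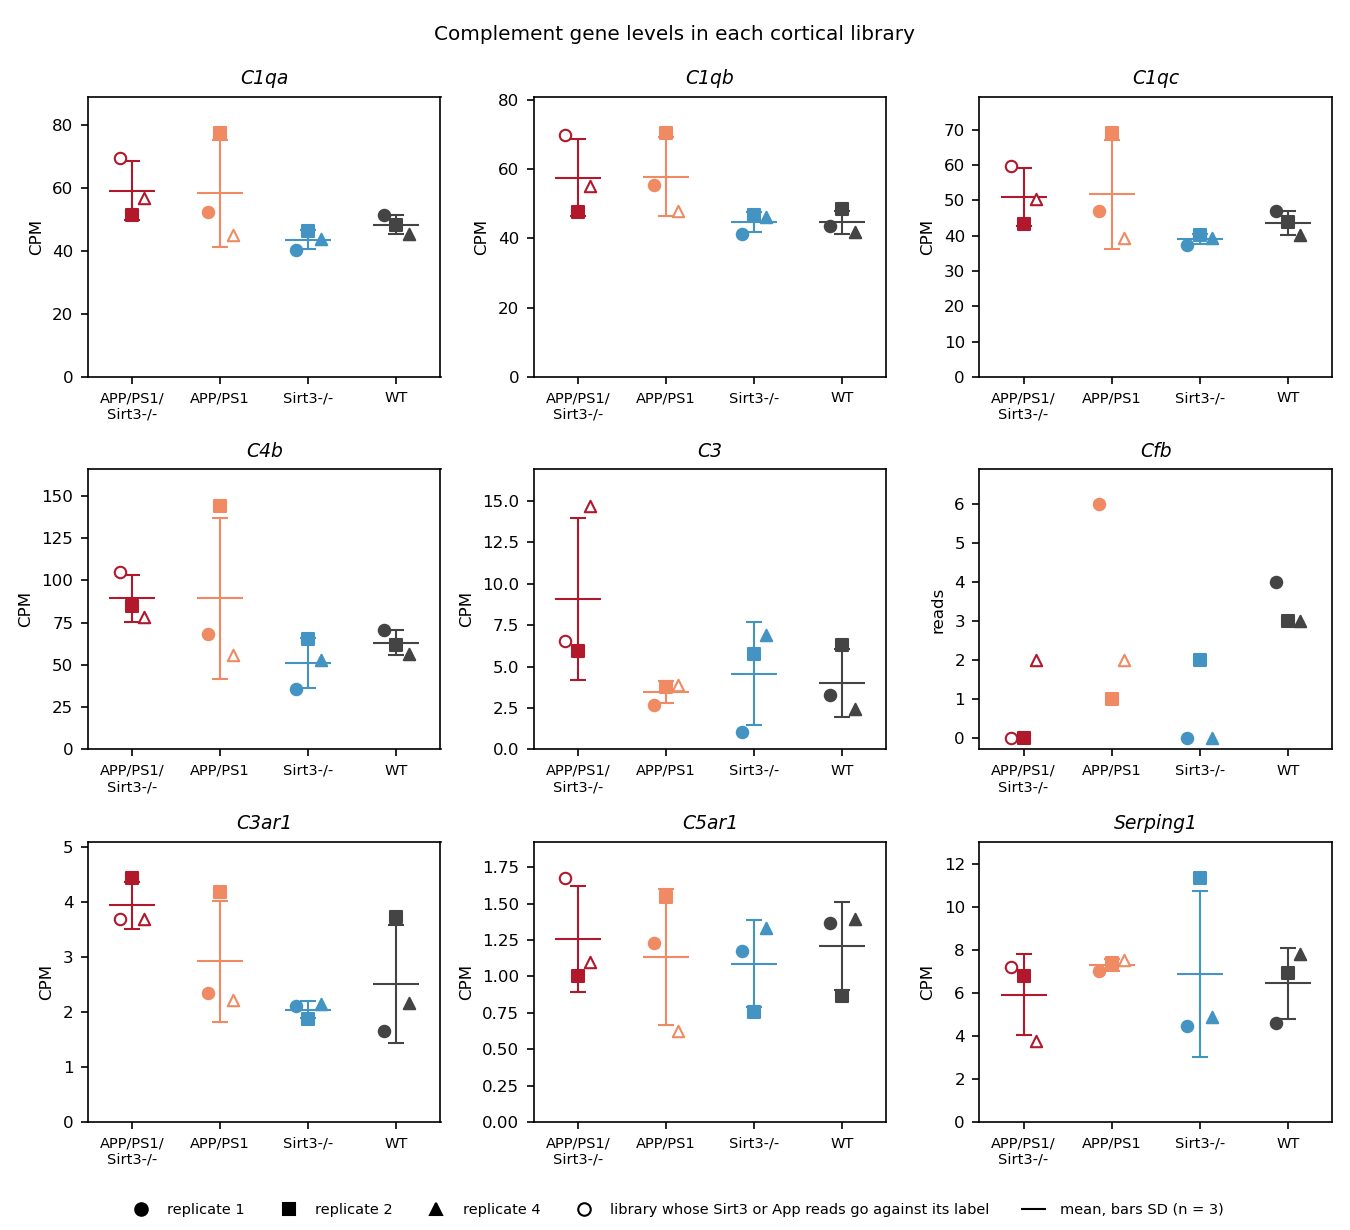
Level of each complement gene in each library, in CPM on the vertical axis (reads for Cfb), by group on the horizontal axis. Points are libraries, lines are means with SD bars (n = 3), and open symbols are libraries whose Sirt3 or App reads go against the label. APP/PS1 replicate 2 was the highest of the 12 libraries for C1qa, C1qb, C1qc and C4b, and APP/PS1/Sirt3-/- replicate 4 for C3.

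C1qa encodes the A chain of C1q, whose heads bind immune complexes, amyloid and synapses. It was at 69.5, 51.4 and 56.8 CPM in replicates 1, 2 and 4 of APP/PS1/Sirt3-/- and at 52.5, 77.4 and 45.0 in APP/PS1, against 40.4, 46.4 and 44.0 in Sirt3-/- and 51.4, 48.1 and 45.5 in WT. APP/PS1 replicate 2 and APP/PS1/Sirt3-/- replicate 1 stood above all others, while APP/PS1 replicate 4, the library with App at the WT level, lay below every WT library. Averaged over both Sirt3 genotypes, the log2 fold change of APP/PS1 was 0.36 (SE 0.12, adjusted p = 0.134, edgeR). Without APP/PS1 replicate 2, it was 0.23 (adjusted p = 0.195), and without APP/PS1 replicate 4, it was 0.43 (adjusted p = 0.0794).

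C1qb, the gene of the B chain, had 69.8, 47.8 and 55.2 CPM in APP/PS1/Sirt3-/- and 55.3, 70.4 and 48.0 in APP/PS1, against 41.4, 46.6 and 46.2 in Sirt3-/- and 43.7, 48.4 and 41.8 in WT. The same pair of libraries was highest, and APP/PS1/Sirt3-/- replicate 2 and APP/PS1 replicate 4 fell within the WT range. Its adjusted p for APP/PS1 averaged over both Sirt3 genotypes was the smallest among these genes, with a log2 fold change of 0.37 (SE 0.11, adjusted p = 0.0840, edgeR). DESeq2 on the same 12 libraries gave 0.37 with an adjusted p of 0.0200, so the call depends on the tool. Over 22 alternatives the adjusted p ranged between 0.0200 and 0.962, and this DESeq2 fit was the only one under 0.05. Without both double-mutant libraries that held Sirt3 reads the log2 fold change was 0.23 (adjusted p = 0.240).

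C1qc, the gene of the C chain, had 59.6, 43.3 and 50.3 CPM in APP/PS1/Sirt3-/- and 46.9, 69.0 and 39.4 in APP/PS1, against 37.4, 40.2 and 39.4 in Sirt3-/- and 46.9, 43.9 and 40.1 in WT. APP/PS1 replicate 4 again lay at the bottom of its group and below every WT library. The log2 fold change of APP/PS1 over both Sirt3 genotypes was 0.32 (SE 0.13, adjusted p = 0.184, edgeR). It was 0.19 without APP/PS1 replicate 2 and 0.40 without APP/PS1 replicate 4.

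C4b encodes the mouse C4 that C1's proteases cleave. It had 104.8, 84.7 and 78.3 CPM in APP/PS1/Sirt3-/- and 68.2, 144.0 and 55.6 in APP/PS1, against 35.7, 65.3 and 53.0 in Sirt3-/- and 70.9, 61.9 and 56.3 in WT. All 3 double-mutant libraries lay above every WT and Sirt3-/- library, whereas APP/PS1 had 1 library far above WT, 1 within the WT range and 1 just below it. The share of all genes lying above both groups at once was not computed. Over both Sirt3 genotypes the log2 fold change of APP/PS1 was 0.65 (SE 0.25, adjusted p = 0.185, edgeR). Without APP/PS1 replicate 2 it was 0.38 (adjusted p = 0.244).

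C3 encodes the component on which all activation routes converge. Its CPM were 6.52, 5.96 and 14.7 in APP/PS1/Sirt3-/- and 2.68, 3.80 and 3.88 in APP/PS1, against 1.05, 5.78 and 6.90 in Sirt3-/- and 3.31, 6.31 and 2.41 in WT. The double mutants lay above every APP/PS1 library, but replicate 4 of Sirt3-/- and replicate 2 of WT fell within their range, and replicate 2 of Sirt3-/- lay just below it. These values rest on 17 to 254 reads a library. Averaged over both Sirt3 genotypes, the log2 fold change of APP/PS1 was 0.38 (SE 0.43, adjusted p = 0.660, edgeR), and it was 0.12 without APP/PS1/Sirt3-/- replicate 4.

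Cfb encodes factor B of the alternative pathway and had 23 reads in all 12 libraries together. They were 0, 0 and 2 in APP/PS1/Sirt3-/- and 6, 1 and 2 in APP/PS1, against 0, 2 and 0 in Sirt3-/- and 4, 3 and 3 in WT. At 0 to 6 reads a library, these counts are too few to order the groups. Cfb did not pass the filter, and with no filter its adjusted p was 0.408 for APP/PS1/Sirt3-/- against WT, 0.606 for Sirt3-/- against WT and 0.439 for the deletion averaged over both APP/PS1 genotypes (edgeR). No fold change is given at this depth.

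C3ar1, the receptor of C3a, had 3.69, 4.43 and 3.70 CPM in APP/PS1/Sirt3-/- and 2.35, 4.18 and 2.23 in APP/PS1, against 2.11, 1.87 and 2.15 in Sirt3-/- and 1.66, 3.72 and 2.16 in WT. The 3 double mutants were close together and above every Sirt3-/- library, and replicate 2 of APP/PS1 and of WT stood apart from the rest of their groups. The log2 fold change of APP/PS1 over both Sirt3 genotypes was 0.58 (SE 0.22, adjusted p = 0.148, edgeR), from 29 to 84 reads a library. C5ar1, the receptor of C5a, had 1.67, 1.00 and 1.10 CPM in APP/PS1/Sirt3-/- and 1.23, 1.54 and 0.628 in APP/PS1, against 1.18, 0.759 and 1.33 in Sirt3-/- and 1.37, 0.864 and 1.40 in WT. Its 4 groups overlapped, and the log2 fold change of APP/PS1 over both Sirt3 genotypes was 0.05 with a 95% interval of -0.52 to 0.63. No change of either sign was detected, from 11 to 29 reads a library. C5ar2, the second C5a receptor, whose gene lies 2588 bases from C5ar1, had 1.27 to 1.56 CPM in APP/PS1/Sirt3-/- and 0.571 to 1.12 in APP/PS1, against 0.817 to 0.868 in Sirt3-/- and 0.971 to 1.02 in WT. The double mutants lay above every other library. Against single groups, the double mutants were wholly higher for 13% of all genes with WT, 6.98% with Sirt3-/- and 5.7% with APP/PS1. The share of all genes for which this held against all of them at once was not computed. These values rest on 10 to 27 reads a library, and edgeR called C5ar2 in no contrast.

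Serping1 had 7.22, 6.81 and 3.76 CPM in APP/PS1/Sirt3-/- and 7.01, 7.40 and 7.53 in APP/PS1, against 4.47, 11.3 and 4.88 in Sirt3-/- and 4.62, 6.91 and 7.81 in WT. The highest and the lowest library were both Sirt3-deleted by label, and all 4 groups overlapped. The log2 fold change of APP/PS1 over both Sirt3 genotypes was -0.02 with a 95% interval of -0.56 to 0.52.

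The effect of the transgenes averaged over both Sirt3 genotypes sets 6 libraries against 6. None of the 8 genes tested passed, where 2.05% of all 16673 genes did. At an unadjusted p under 0.05 there were 5 of 8 (the 3 C1q genes, C4b and C3ar1), where 20.9% of all genes were under it. DESeq2 called 1 of the 8, C1qb, where it called 6.4% of all genes. The fold changes were positive for 7 of the 8, with a median of 0.36 on the log2 scale beside 0.000402 over all genes. In no member did the 6 labelled APP/PS1 libraries lie wholly above the other 6, which 0.786% of all genes did. Microglial markers moved with these genes: of 15 plaque-associated microglia markers, 15 had positive log2 fold changes with a median of 0.61, and 3 rose: Clec7a, Ccl3 and Ccl6, named after their values were seen. Their summed level was 709.8 to 840.0 CPM in APP/PS1/Sirt3-/- and 659 to 992 in APP/PS1, against 567 to 645 in Sirt3-/- and 556 to 665 in WT. Of 13 homeostatic microglia markers, 13 had positive fold changes and none passed, with a median of 0.17. Several other lists had positive medians with no member past the test: 16 of 16 interferon response genes were positive with a median of 0.64, 7 of 9 reactive astrocyte markers with 0.32, and 6 of 6 blood and liver genes with 0.79. Hippocampal neuron markers were positive in 6 of 6 with a median of 0.50, and oligodendrocyte markers in 8 of 8 with 0.20. The summed interferon response level was 117.9 to 214.6 CPM in APP/PS1/Sirt3-/- and 112.4 to 151.4 in APP/PS1, against 99.6 to 104.0 in Sirt3-/- and 110.7 to 125.4 in WT. The reactive astrocyte sum was 299.2 to 486 CPM in APP/PS1/Sirt3-/- and 301.0 to 714 in APP/PS1, against 174.8 to 247.4 in Sirt3-/- and 275.3 to 342 in WT. The part of these lists in the members' values was not tested. In bulk tissue more cells of a type and more RNA per cell cannot be told apart. Thalamic markers also moved with the labels: 9 of 9 had positive log2 fold changes with a median of 1.77, and 2 rose, Tnnt1 and Ramp3. Their sum was 108.4 to 390.6 CPM in APP/PS1/Sirt3-/- and 240.7 to 326.8 in APP/PS1, against 67.9 to 172.0 in Sirt3-/- and 81.0 to 96.4 in WT. The 108.4 CPM was APP/PS1/Sirt3-/- replicate 4, within the Sirt3-/- range. With choroid plexus, thalamic and striatal marker levels in the model, the log2 fold changes were 0.30 for C1qa, 0.29 for C1qb, 0.39 for C4b and 0.76 for C3ar1, none with an adjusted p under 0.05. Without the pair of double-mutant libraries that held Sirt3 reads they were 0.25 for C1qa, 0.20 for C1qc, 0.61 for C4b, 0.67 for C3ar1 and 0.08 for C3, and without APP/PS1 replicate 4 they were 0.77 for C4b and 0.66 for C3ar1.

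**Figure D2:**
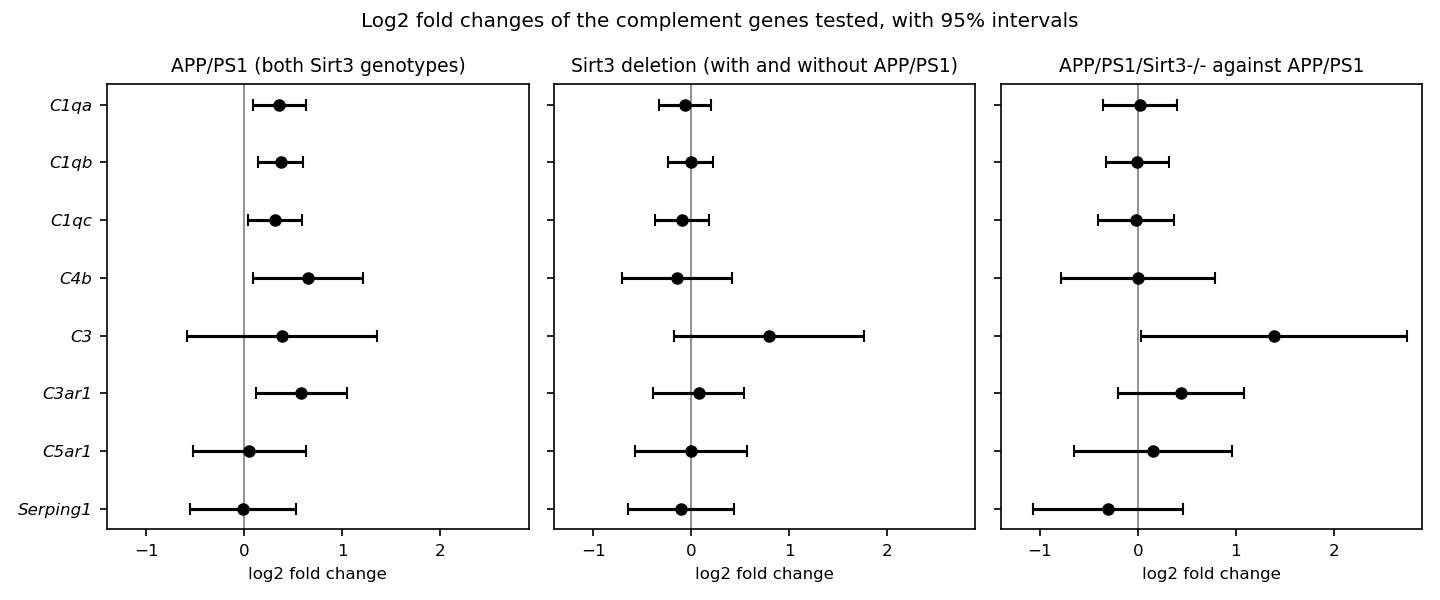
Log2 fold changes (horizontal axis) of the 8 complement genes tested (vertical axis), with 95% intervals as bars, for APP/PS1 over both Sirt3 genotypes (left), Sirt3 deletion over both APP/PS1 genotypes (middle) and APP/PS1/Sirt3-/- against APP/PS1 (right). For APP/PS1 the intervals of C1qa, C1qb, C1qc, C4b and C3ar1 lie above 0 before adjustment over genes, and C3 has the widest intervals in all 3 panels.

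APP/PS1 against WT asks what the transgenes change where Sirt3 is intact. The edgeR fit called 0% of all genes and none of the 8 members, and DESeq2 on all 12 libraries called none of them either. At an unadjusted p under 0.05 there was 1 of 8, C1qb, where 17% of all genes were. The log2 fold changes were 0.27 for C1qa, 0.38 for C1qb, 0.24 for C1qc, 0.50 for C4b, 0.22 for C3ar1 and -0.22 for C3. Apart from C3 and C1qb they rested largely on replicate 2: without it they were 0.01 for C1qa, -0.02 for C1qc, -0.03 for C4b and -0.12 for C3ar1. C1qb was 0.21 without it. Replicate 4, whose App level was that of WT, lay lowest of the 3 for the C1q genes, C4b, C3ar1 and C5ar1. Without it, and with only these 2 groups in the fit, C1qb was called by edgeR (log2 fold change 0.50, adjusted p = 0.0311), where 4.65% of all genes were. DESeq2 on the 2 groups of 3 libraries called C1qb as well (0.38, adjusted p = 0.0445), where 8.02% of genes were.

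APP/PS1/Sirt3-/- against WT sets the double mutant against neither mutation. None of the 8 members passed in edgeR, where 1.13% of all genes did, and none in DESeq2 on all 12 libraries. At an unadjusted p under 0.05 there were 2 of 8, C1qb and C3ar1, where 20.1% of genes were. C1qa and C4b were higher in every double-mutant library than in every WT library, as were 13% of all genes. The log2 fold changes were 0.29 for C1qa, 0.37 for C1qb, 0.23 for C1qc, 0.50 for C4b, 0.66 for C3ar1 and 1.18 for C3. DESeq2 on only these 2 groups called C4b (0.50, adjusted p = 0.00702) and C3 (1.17, adjusted p = 0.0330), in a fit that called 7.06% of genes. Without APP/PS1/Sirt3-/- replicate 4 the log2 fold change of C3 was 0.64 (adjusted p = 0.606, edgeR on the other 11 libraries). Without both double-mutant libraries that held Sirt3 reads it was 0.57, and that of C1qc was -0.02.

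APP/PS1/Sirt3-/- against Sirt3-/- asks what the transgenes change where Sirt3 is deleted. The edgeR fit called 0% of all genes and none of the members, and DESeq2 on all 12 libraries called none of them. At an unadjusted p under 0.05 there were 3 of 8 (C1qa, C1qb and C3ar1), where 11.4% of genes were. C1qa, C1qb, C1qc, C4b and C3ar1 were higher in every double-mutant library than in every Sirt3-/- library, 5 of the 8, as were 6.98% of all genes. The log2 fold changes were 0.44 for C1qa (SE 0.17), 0.36 for C1qb (SE 0.15), 0.39 for C1qc (SE 0.18), 0.80 for C4b (SE 0.35), 0.95 for C3ar1 (SE 0.31) and 0.98 for C3 (SE 0.60). C3ar1 had the smallest adjusted p of them, 0.292. Single libraries moved some of these values: C3 was 0.45 without APP/PS1/Sirt3-/- replicate 4 and 0.51 without Sirt3-/- replicate 1, and C1qb was 0.20 without APP/PS1/Sirt3-/- replicate 1. Without both double-mutant libraries that held Sirt3 reads the log2 fold changes were 0.23 for C1qa, 0.09 for C1qb, 0.15 for C1qc, 0.72 for C4b, 1.11 for C3ar1 and 0.38 for C3. DESeq2 on only these 2 groups called C4b (adjusted p = 0.0368), where 0.36% of genes were. The contrasts that include the double mutant share its libraries, and likewise for the other groups.

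APP/PS1/Sirt3-/- against APP/PS1 asks what the deletion adds where the transgenes are present. None of the 8 members passed in edgeR, where 0.024% of all genes did, and none in DESeq2 on all 12 libraries. C3 alone had an unadjusted p under 0.05, where 4.86% of all genes were. It was also the only member whose groups did not overlap, as did 5.7% of all genes in that direction. Its log2 fold change was 1.39 (SE 0.61, 95% interval 0.03 to 2.75), with an adjusted p of 0.974. DESeq2 on only these 2 groups gave 1.39 with an adjusted p of 0.0276 and called 0.185% of genes. Over the 24 alternatives the adjusted p of C3 ranged between 0.0276 and 1.00. Replicate 4 of the double mutant held 254 of that group's 480 C3 reads, and without it the log2 fold change was 0.86 (adjusted p = 0.955). That library and replicate 1 also held Sirt3 reads, and without both the value was 0.78. C3ar1 had a log2 fold change of 0.44 (SE 0.30), and the 95% intervals were -0.35 to 0.40 for C1qa, -0.33 to 0.31 for C1qb, -0.40 to 0.37 for C1qc and -0.78 to 0.79 for C4b.

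Sirt3-/- against WT gave no called member in edgeR, where 0.294% of all genes were called, nor in DESeq2 on all 12 libraries. None of the 8 had an unadjusted p under 0.05 either, where 13.5% of genes did. Of the 8, 3 had positive fold changes, and C3ar1 had -0.29 and C3 0.20. Striatal markers followed the Sirt3 label. Of them, 8 of 8 had positive log2 fold changes, with a median of 2.49, though none was called. Their median was 1.48 for the deletion averaged over both APP/PS1 genotypes. With choroid plexus, thalamic and striatal marker levels in the model, C3ar1 had 0.63 in Sirt3-/- against WT. The part of dissected region in the members' values was not tested. Sirt3 deletion averaged over both APP/PS1 genotypes gave no called member by either tool, where 0.222% of all genes were called by edgeR. None had an unadjusted p under 0.05, where 12.3% of genes did, and the median of the members was -0.03 beside 0.000689 over all genes. C3 had the largest change of the members, 0.79 on the log2 scale (SE 0.43, adjusted p = 0.505, edgeR). It was 0.23 to 1.03 over 22 alternatives, which include leaving out the double-mutant libraries that held Sirt3 reads. The intervals allow changes of the C1q genes of up to -0.37 and 0.23 on the log2 scale and of C3 of up to 1.76.

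The interaction asks whether the transgenes' effect differs with Sirt3 genotype. No member was called by edgeR, where 0% of all genes were, or by DESeq2 on all 12 libraries, and none had an unadjusted p under 0.05, where 6.48% of genes did. C3 had an interaction of 1.20 on the log2 scale (SE 0.87, adjusted p = 0.852) and C3ar1 of 0.73 (SE 0.43, adjusted p = 0.817). Leaving out each library in turn gave 0.66 to 1.61 for C3, lowest without APP/PS1/Sirt3-/- replicate 4, and 0.34 to 1.07 for C3ar1, lowest without WT replicate 2. Without both double-mutant libraries that held Sirt3 reads the values were 0.59 for C3 and 0.89 for C3ar1. A difference in the effect was thus not shown for any of them.

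The 3 C1q chains, which assemble in equal numbers into 1 protein, kept nearly constant proportions. The FPKM ratio of C1qc to C1qa was 0.729 to 0.801 over the 12 libraries, a coefficient of variation of 2.73%, while C1qa itself ranged between 37.9 and 75.8 FPKM. The ratio of C1qb to C1qa was 0.813 to 1.02 (6.86%), lowest in replicates 1 of WT and 2 of APP/PS1. The ratio of C4b to C1qa varied more, 0.171 to 0.360 (17.9%), and was highest in APP/PS1 replicate 2 and lowest in Sirt3-/- replicate 1, the extremes of C4b itself.

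**Figure D3:**
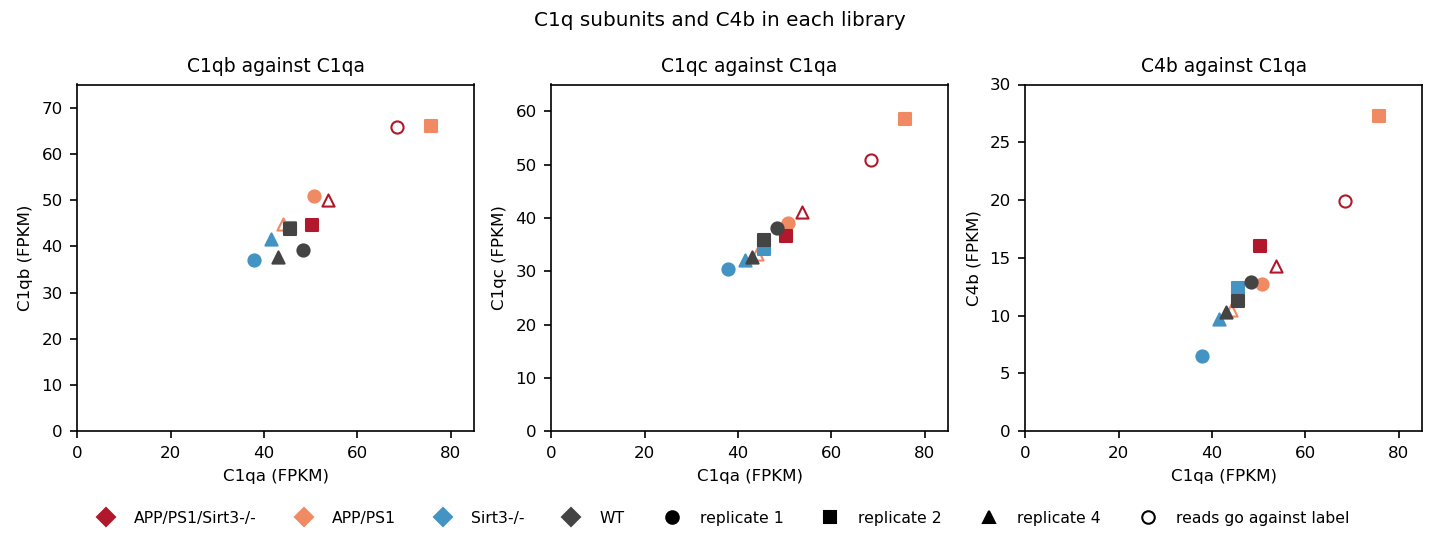
C1qb, C1qc and C4b (vertical axes, FPKM) against C1qa (horizontal axis, FPKM), 1 point per library, coloured by group, shaped by replicate number and open where Sirt3 or App reads go against the label. C1qc keeps 0.729 to 0.801 of the C1qa level throughout, and C4b is highest, 27.3 FPKM, in APP/PS1 replicate 2, where C1qa is highest too.

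Over the 12 libraries, the log2 CPM of C1qa and C1qc had a Pearson r of 0.990, of C1qa and C1qb 0.930, and of C1qa and C4b 0.951 (Spearman rho 0.958, 0.825 and 0.958). With group means removed, these r were 0.990, 0.921 and 0.913. C3 had r of 0.34, 0.37, 0.29 and 0.45 with C1qa, C1qb, C1qc and C4b, and Serping1 had 0.24 or less with each. C3ar1 lay between, at 0.61 to 0.65 with the C1q genes and C4b. These are descriptions over libraries that share depth scaling, tissue make-up and groups, and no p-value is attached.

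The genes most like each member, by Pearson r of log2 CPM among all genes that passed the filter, were searched over the same 12 libraries. For C1qa they were C1qc, Laptm5 (0.961), a lysosomal membrane protein of blood and microglial cells, and C4b. For C1qb they were C1qa, Ctss (0.916), the microglial protease cathepsin S, and C1qc. For C1qc they were C1qa, Laptm5 (0.969) and Myo1f (0.925), a myosin of immune cells. For C4b they were C1qa, Itgax (0.942), the gene of the complement receptor chain CD11c, and Capg (0.936), an actin-capping protein of macrophages. C3ar1 was nearest to Mpeg1 (0.881), the macrophage gene of perforin 2, Fcgr3 (0.852), an antibody receptor, and Sigirr (0.843). C3 was nearest to Rarres2 (0.900), which encodes chemerin, Rpl39-ps (0.893) and 2410004P03Rik (0.892), and none of the other members was among its 3. C5ar1 was nearest to Nusap1 (0.840), Gm14508 (0.836) and Sall1 (0.835), a transcription factor of microglia. Serping1 was nearest to Gm16938 (0.908), Slc6a12 (0.907), a betaine and GABA transporter, and Tgfbr3 (0.900). The libraries share their groups, so such a likeness says nothing of common control.

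Marker lists gave the same division. With the mean log2 CPM of the 15 plaque-associated microglia markers (highest by FPKM: Ctsd, Cd63 and Tyrobp), r was 0.89 for C1qa, 0.87 for C1qb, 0.84 for C1qc, 0.87 for C4b, 0.78 for C3ar1, 0.42 for C5ar1, 0.33 for C3 and 0.08 for Serping1. With the 13 homeostatic microglia markers (among them Csf1r and Cx3cr1), r was 0.87 for C1qa and 0.61 for C3ar1, and -0.19 for Serping1. Serping1 instead followed meningeal and vascular fibroblast markers (Igf2, Islr and Col1a2) with r of 0.79 and choroid plexus markers with 0.73. C3 reached r of 0.33 at most, with plaque-associated microglia and thalamic markers, and -0.44 with astrocyte markers (Slc1a2, Slc1a3 and Gja1), which was -0.89 with group means removed. With reactive astrocyte markers (Gfap, Vim and Serpina3n) r was 0.67 for C1qa, 0.71 for C1qb, 0.63 for C1qc and 0.71 for C4b, and 0.25 for C3. With the interferon response genes it was 0.84 for C1qa, 0.83 for C1qb, 0.83 for C1qc and 0.76 for C4b, and 0.17 for C3, so the C1q genes and C4b followed more than the microglial lists. Neutrophil and monocyte markers were close to 0, at 0.399 to 4.24 CPM summed over the 3 of 8 listed genes that passed the filter, and border macrophage markers at 7.52 to 17.1 CPM over 6 of 7. Every marker found in the table had at least 1 read in some library.

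**Figure D4:**
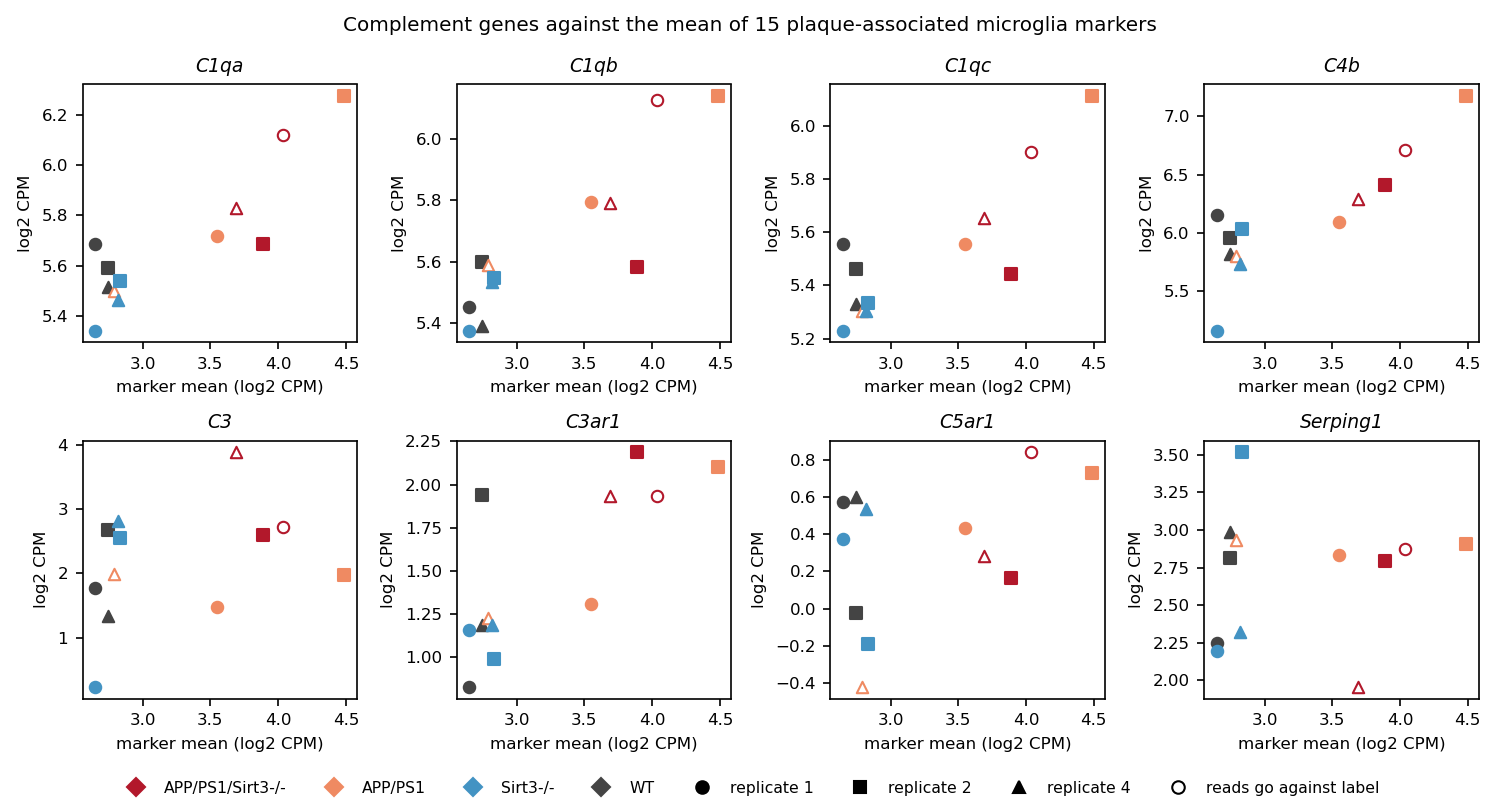
Log2 CPM of the 8 complement genes tested (vertical axes) against the mean log2 CPM of 15 plaque-associated microglia markers (horizontal axis), 1 point per library, coloured by group, shaped by replicate number and open where Sirt3 or App reads go against the label. C1qa, C1qb, C1qc and C4b are high in the libraries with a high marker mean (r of 0.84 to 0.89), and C3 and Serping1 are spread at every marker mean (r of 0.33 and 0.08).

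The rest of the pathway was taken from lists of 53 genes, of which 51 are in the table and 35 passed the filter. The other 16 had at most 76 reads in all 12 libraries together, among them C1s2, Cfd, Cfi and, of the proteins that form the membrane pore, C6, C8a, C8b and C9. The initiators and C1 proteases (6 tested) had no call in any contrast, and for APP/PS1 over both Sirt3 genotypes 2 of 6 were positive, C1ra having -0.50 (adjusted p = 0.279). The components and convertase enzymes (6 tested) had none either. Among them Hc, the gene of C5, had 0.405 to 0.950 CPM in APP/PS1/Sirt3-/- and 0.450 to 0.696 in APP/PS1, against 0.0620 to 0.317 in Sirt3-/- and 0.254 to 0.400 in WT. All 6 libraries labelled with the transgenes lay above the other 6, as did 0.786% of all genes, with a log2 fold change of 1.30 (SE 0.37, adjusted p = 0.0793, edgeR), but from 1 to 18 reads a library. With choroid plexus, thalamic and striatal marker levels in the model it was 0.20 (adjusted p = 0.999), and without APP/PS1/Sirt3-/- replicate 4 it was 1.43 (adjusted p = 0.0346). C2, which is cleaved with C4, had a summed 24 to 57 reads a group and no call.

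Of the 5 other receptor genes tested, 5 had positive fold changes for APP/PS1 over both Sirt3 genotypes and none passed in edgeR. Itgax had 2.22 to 3.35 CPM in APP/PS1/Sirt3-/- and 0.228 to 6.37 in APP/PS1, against 0.124 to 0.409 in Sirt3-/- and 0.317 to 0.628 in WT. Its log2 fold change was 2.84 (SE 0.69, adjusted p = 0.0607), and the APP/PS1 library at 0.228 CPM was again replicate 4. Without that library it was 3.11 (adjusted p = 0.0267, edgeR), and without replicate 2 of APP/PS1 it was 1.85 (adjusted p = 0.0768). DESeq2 on all 12 libraries called Itgax (2.88, adjusted p = 0.000178). Itgax also belongs to the plaque-associated list. Itgam, the other chain that marks microglia and binds cleaved C3, had 0.35 (SE 0.09, adjusted p = 0.0670). It was called by DESeq2 (adjusted p = 0.0248), where 6.4% of all genes were, and by edgeR with no filter on low counts (adjusted p = 0.0431). Itgb2, the chain both pair with, had 0.29 (adjusted p = 0.331), and 0.08 without APP/PS1 replicate 2.

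Regulators (18 tested) held the only gene that edgeR called among these 35, where it called 2.05% of all genes in the averaged contrast and 1.13% in APP/PS1/Sirt3-/- against WT. Csmd1, a neuronal membrane protein that limits complement on synapses, fell in APP/PS1 over both Sirt3 genotypes by 0.34 on the log2 scale (SE 0.07, adjusted p = 0.0376) and in APP/PS1/Sirt3-/- against WT by 0.47 (SE 0.10, adjusted p = 0.0475). Csmd1 had 63.1 to 73.7 CPM in APP/PS1/Sirt3-/- and 64.0 to 71.6 in APP/PS1, against 69.6 to 83.7 in Sirt3-/- and 79.0 to 103.8 in WT. The Sirt3-/- range overlapped those of both APP/PS1 groups. The averaged call stood in 9 of 22 alternatives and that against WT in 8 of 24, with a log2 fold change below 0 in all of them. The averaged call was lost when any 1 library other than WT replicate 2, Sirt3-/- replicate 2 or APP/PS1/Sirt3-/- replicate 4 was left out, with adjusted p-values of up to 0.105. Over all 22 alternatives its adjusted p reached 0.591. With region markers in the model the log2 fold change against WT was -0.62 (adjusted p = 0.477, edgeR). Cortical excitatory neuron markers moved the same way, all 8 having negative fold changes in the averaged contrast with a median of -0.39, and their part in the result was not tested. Its relative Csmd2 had -0.23 (adjusted p = 0.139, 0.0307 without Sirt3-/- replicate 2 and 0.0289 without APP/PS1/Sirt3-/- replicate 4), and 9 of the 18 regulators had positive fold changes. Cd59a, an inhibitor of the membrane pore, had 0.68 (SE 0.27, adjusted p = 0.180, and 0.0206 without Sirt3-/- replicate 2), C1qbp, a mitochondrial protein that can bind C1q, 0.16 (adjusted p = 0.201), and Sez6l 0.13 (adjusted p = 0.305). Some fits without 1 library adjusted p-values over all genes less strongly. Without Sirt3-/- replicate 2, an unadjusted p of 0.0023 for Csmd2 became 0.0307 (edgeR). Without APP/PS1/Sirt3-/- replicate 4, 0.0021 for Hc became 0.0346, while in the main fit 0.0024 for Itgam became 0.0670. The share of all genes called in those fits is not given here. Over all 35 genes the median log2 fold change was 0.04.

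**Figure D5:**
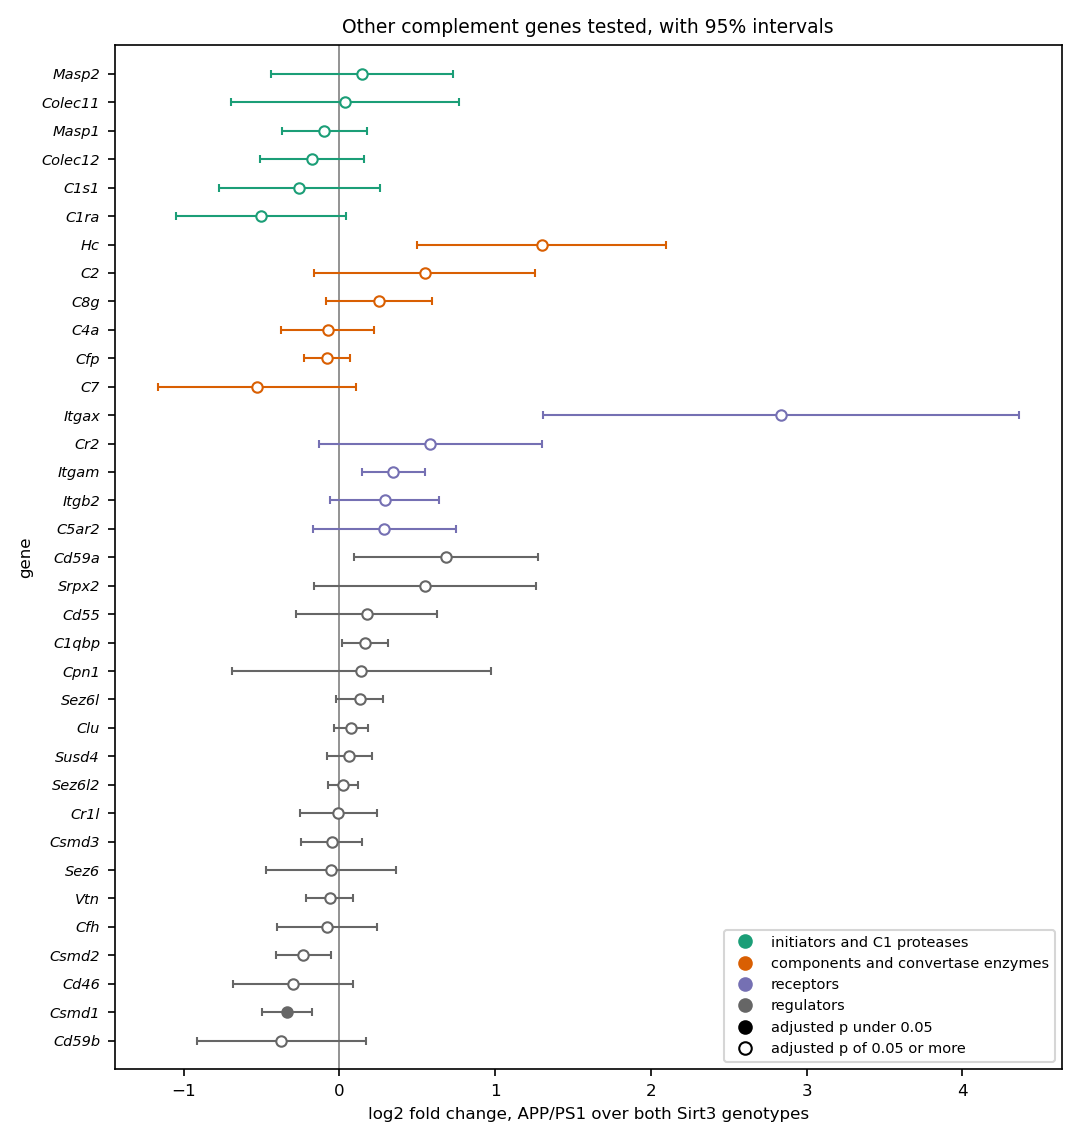
Log2 fold change of APP/PS1 over both Sirt3 genotypes (horizontal axis) with 95% intervals for the 35 other complement genes tested (vertical axis), coloured by role, filled where the adjusted p is under 0.05. Csmd1, at -0.34, is the filled point, and Itgax, at 2.84, lies farthest from 0.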

How the data were processed

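Cortical RNA was selected with oligo-dT beads and sequenced, and the authors mapped reads with TopHat to GRCm38 (mm10), deposited read counts per gene, and deposited FPKM values (RPKM in the methods). For the counter, its annotation and its strand setting the sources used here give nothing. The same table holds DESeq2 fold changes and p-values of the authors' comparisons, which were not used. Counts of 16673 genes passing filterByExpr were normalized by TMM and fitted with edgeR 4.0.16 (R 4.3.3) as 4 group means over 12 libraries. P-values were adjusted over all genes of a contrast (Benjamini-Hochberg) and called under 0.05. Log2 CPM used a prior count of 2. Libraries, 15251720 to 18644376 reads in genes, were grouped by title and taken as separate mice. In the main fit, p-values set group differences against the spread between libraries within groups, estimated over all 4 groups. That spread includes the libraries that go against their labels. The fit was tested on simulated data. Alternatives were DESeq2 1.42.0, RLE factors, other filters, a replicate block, leaving out single libraries, fits of 2 groups, and, chosen after seeing the data, fits without libraries that go against their labels, with Xist class or with region markers. The genes, the lists and the rule for named genes (all 9 genes, other complement genes by adjusted p, the 3 most alike genes, the 3 most abundant markers) were chosen with earlier results of these data known. C4a, C2 and C5ar2, among others, were named outside this rule. A marker that the rule names is not reported here.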

Additional observations from a re-analysis of the deposited data

How the results depend on the processing

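Of 187 recounts of called complement genes, 181 gave 0 as in the fits reported, all those leaving out 1 library included. DESeq2 on all 12 libraries called 1 gene for APP/PS1 over both Sirt3 genotypes, where it called 6.4% of all genes. DESeq2 on only the 2 groups compared called 1 in APP/PS1 against WT, 2 in APP/PS1/Sirt3-/- against WT, 1 in APP/PS1/Sirt3-/- against APP/PS1 and 1 in APP/PS1/Sirt3-/- against Sirt3-/-. The 2-group edgeR fit without the APP/PS1 library with App at the WT level called 1 in APP/PS1 against WT. The cause of these differences was not tested. The median of all genes moved by at most 0.02 on the log2 scale.

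Of 995 refitted log2 fold changes for chosen pairs of gene and contrast, 30 changed sign, none of them called. This is not the rate over all members and contrasts. Outside these pairs, C4b in APP/PS1/Sirt3-/- against APP/PS1 changed sign in 14 of 24 alternatives and C1qb in Sirt3-/- against WT in 11 of 24. Serping1 in the former contrast and C1qa in the latter did so in 0 of 24. For APP/PS1 over both Sirt3 genotypes, C5ar1 was -0.11 without both double-mutant libraries holding Sirt3 reads and -0.090 with region markers. Serping1 was 0.080 without those libraries, 0.069 without these and the APP/PS1 library with App at the WT level, 0.075 in the 8 libraries with Xist reads, and 0.018 with the replicate block. In APP/PS1/Sirt3-/- against WT, C1qc was -0.019 without the libraries holding Sirt3 reads and -0.019 without the APP/PS1 library too. In Sirt3-/- against WT, C3ar1 was 0.63 with region markers and C3 was -0.48 in the libraries with Xist reads, and the interaction of C3ar1 was -0.0029 with region markers. For APP/PS1 over both Sirt3 genotypes, region markers also gave 0.030 for Csmd2 and -0.033 for C1qbp. Leaving out each library gave -0.085 to 0.20 for C5ar1 and -0.14 to 0.26 for Serping1 over both Sirt3 genotypes. In APP/PS1 against WT it gave -0.018 to 0.41 for C1qc, -0.027 to 0.75 for C4b, -0.12 to 0.61 for C3ar1 and -0.47 to 0.26 for C3, and in Sirt3-/- against WT -0.52 to 0.10 for C3ar1 and -0.22 to 0.67 for C3. The labels give the replicate numbers no meaning, and 9 of 18 same-numbered pairs had r over 0.1 (range -0.11 to 0.23), so the block was kept as an alternative. As a hint from the data, 8 of 12 libraries correlated best with their own number, and replicate 4 of every group was the library nearly without Xist. The replicate block called 0 of the 9 complement genes in each contrast, and Csmd1 lost its call in APP/PS1/Sirt3-/- against WT (adjusted p = 0.0632, edgeR). Where only 1 double-mutant library was left, it was assumed to vary like the other groups. Low read counts limit Cfb, C5ar1, C3ar1 and C3.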
